A study of Mus musculus with 96 samples.

Results

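The liver response to sleep deprivation was followed in 24 of the 96 RNA sequencing libraries of a study of mouse forebrain, cerebellum, liver and kidney, chosen because their labels name liver as the tissue. All animals were male wild-type (WT) C57BL/6 mice aged 6 to 8 weeks. The study housed them in a daily light and dark cycle and states that samples were collected under constant darkness. Sleep-deprived mice (SD) spent 10 h of their resting phase walking in a slowly rotating drum in which food and water could be reached, and control mice (CON) were left undisturbed. Livers were collected 4 h apart at 6 time points, CT4 through CT24 in circadian time (CT). Per the study, collection came after the 10 h of deprivation had ended, at the circadian times that followed. Each condition had 2 replicates at a time point, so 12 SD libraries were compared with 12 CON libraries. SD and CON differ in walking and in the drum as well as in sleep, and these cannot be told apart. The study calls the replicates biological; the labels do not tie them to single animals, and p-values measure the spread between these samples.

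Most liver RNA comes from hepatocytes, which make plasma proteins, burn and export fat, degrade amino acids, clear ammonia as urea and oxidize drugs and steroids with cytochrome P450 enzymes. Between them lie sinusoidal endothelial cells, vitamin A storing stellate cells and a large resident immune compartment of Kupffer cells (the liver's macrophages), dendritic cells, lymphocytes and passing neutrophils. Immune cells show antigen to T cells on MHC class II molecules, interferons switch on antiviral genes through response elements in their promoters, and NRF2 is the transcription factor that drives glutathione and antioxidant genes.

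The promoter stretches below belong to members of lower gene lists (Gbp5, Top2a, H2-Aa and G6pdx) and to Gbp2b, a guanylate-binding protein gene on no list that is shown for its large decrease. Only genes with a match before the start were shown, so the stretches do not stand for their lists. The motifs were a pair of GAAA repeats with 2 bases between them, the core of the interferon-stimulated response element, for interferon genes, TTTGAA, the core of the cell cycle homology region, for mitotic genes, CCAAT, a general promoter box that is also the Y box of MHC class II genes, and TGACNNNGC, the core of the antioxidant response element. Each was searched on both strands between 250 bases before and 50 bases after the start in RefSeq promoters on GRCm38.p6, which were found for 11884 tested genes. Each sequence holds the 250 bases before the start, 5′ to 3′ on the gene's strand. Capitals mark matches of the GAAA pair for Gbp2b and Gbp5, of TTTGAA for Top2a, of CCAAT for H2-Aa and of TGACNNNGC for G6pdx. Matches of the other motifs are not marked. The genes lie on GRCm38 (GENCODE M21) and the windows are chr3:142594597-142594846 (+) for Gbp2b, chr3:142496684-142496933 (+) for Gbp5, chr11:99024190-99024439 (-) for Top2a, chr17:34287824-34288073 (-) for H2-Aa and chrX:74428881-74429130 (-) for G6pdx.
Gbp2b: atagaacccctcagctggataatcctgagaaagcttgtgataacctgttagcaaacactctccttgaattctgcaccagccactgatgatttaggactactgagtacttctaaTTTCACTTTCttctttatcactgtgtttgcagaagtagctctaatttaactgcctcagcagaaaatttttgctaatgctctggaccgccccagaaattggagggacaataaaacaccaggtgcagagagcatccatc
Gbp5: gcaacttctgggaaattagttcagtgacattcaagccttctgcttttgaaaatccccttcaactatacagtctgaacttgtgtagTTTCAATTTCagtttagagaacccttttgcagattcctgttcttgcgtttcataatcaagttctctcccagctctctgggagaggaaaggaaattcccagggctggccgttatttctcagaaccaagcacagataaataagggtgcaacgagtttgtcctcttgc
Top2a: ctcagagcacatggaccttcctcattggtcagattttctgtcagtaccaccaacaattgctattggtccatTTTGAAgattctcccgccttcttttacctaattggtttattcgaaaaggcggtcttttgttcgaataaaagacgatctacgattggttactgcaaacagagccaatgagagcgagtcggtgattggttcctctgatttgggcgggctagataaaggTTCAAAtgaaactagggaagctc
H2-Aa: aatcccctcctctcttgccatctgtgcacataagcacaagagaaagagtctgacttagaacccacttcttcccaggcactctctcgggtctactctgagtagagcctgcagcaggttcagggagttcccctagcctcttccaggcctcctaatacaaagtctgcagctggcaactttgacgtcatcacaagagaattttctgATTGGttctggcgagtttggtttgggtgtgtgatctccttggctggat
G6pdx: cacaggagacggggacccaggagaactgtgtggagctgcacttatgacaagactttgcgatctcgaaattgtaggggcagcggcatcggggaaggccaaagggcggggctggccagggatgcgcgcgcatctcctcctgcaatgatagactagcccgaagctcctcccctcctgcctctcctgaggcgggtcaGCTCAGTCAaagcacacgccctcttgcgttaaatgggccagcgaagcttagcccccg

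The interferon-stimulated response element core stood in 22 of the 31 interferon genes with a promoter (71%), against 3.19% of all tested genes with a promoter, and in 14 of the 22 interferon genes that were lower in SD. TTTGAA stood in 26 of 35 mitotic promoters (74.3%) and in 3 of 22 replication promoters (13.6%), against 12.8% of all. CCAAT stood in 6 of 7 MHC class II promoters, 23 of 35 mitotic and 15 of 22 replication promoters, against 38.2% of all. TGACNNNGC stood in 7 of 22 promoters of NRF2 genes (31.8%), against 14.5% of all. It stood in 5 of 17 promoters of the lower NRF2 genes and in 0 of 6 of the lower conjugation enzyme genes. The motif of peroxisome proliferator-activated receptors (PPAR), AGGNCA repeats with 1 base between them, was in none of 24 promoters of fatty acid oxidation genes and in 1 of 25 of PPAR alpha targets, against 0.303% of all, 2.04% of the higher genes (5 of 245) and 0.253% of the lower genes (3 of 1184). The motifs belong to the lists as such, and a match is a description of these letters in this window.

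The liver libraries held between 32.03 and 48.85 M counted read pairs. Values are given in CPM, the count scaled by the library total, and fold changes as log2 of SD over CON from edgeR's quasi-likelihood test with time point as an additive term, with their standard error (SE), n = 12 libraries in each condition, and p-values adjusted over all 19708 tested genes (Benjamini-Hochberg, threshold 0.05). Scaling was done in 2 ways, by TMM factors, which centre the bulk of genes on no change, and by library totals alone; the second lowers the median of all genes by 0.13, from 0.01 to -0.13. Genes are called higher or lower here only where they passed under both, and other calls name their scaling. Fold changes printed without a scaling are from TMM. The library of SD at CT16, replicate 1, had the lowest share of counts in the 100 most abundant genes (33.2%) and the highest log2 TMM factor (0.23) of the 24; both CON libraries at CT16 came next in that share (34.1% and 34.2%). Among 9 library measures, SD and CON differed in 4 by exact permutation within time points (two-sided, adjusted over the 9). The share of counts in protein-coding genes with more than 4000 exonic bases was 47.9% in CON and 46.8% in SD (adjusted exact p = 0.0181). The number of genes detected was lower by 669 in SD (adjusted exact p = 0.0145), and both measures were lower at 6 of 6 times. The other 2 were the share of the 100 most abundant genes and the TMM factor (adjusted exact p = 0.00193 and 0.000772).

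Both conditions had the marker pattern of liver. The 17 tested hepatocyte markers summed to between 112754 and 143553 CPM per library. Of 12 kidney markers 5 had enough reads to be tested, and these summed to 5.99 to 9.68 CPM. The 2 tested of 12 pancreatic acinar markers summed to 7.498 to 19.9 CPM and the 6 tested of 12 neuron and glia markers to 11.5 to 50.9 CPM.

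Under both scalings 358 genes were higher in SD (1.82% of all tested) and 1735 were lower (8.8%), and 0 genes passed in opposite directions. With TMM the calls were 1857 higher (9.42%) and 1735 lower, and with library totals 358 higher and 3763 lower (19.1%), so the share of higher genes among the calls was 51.7% and 8.69%. Of the 358 higher genes 317 were higher at 6 of 6 times, and of the 1735 lower genes 1382 were lower at 6 of 6. Among the called genes, decreases were larger than increases. More than 2-fold differences were found for 242 lower and 25 higher genes, and the median log2 fold change was -0.56 and 0.37. For 66 genes (0.335%) every SD library lay below every CON library in CPM, and for 0 genes every SD library lay above. Without SD CT16 replicate 1, 403 genes were higher and 2089 lower, of which 330 and 1690 were among those above.

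The direction went with the level of the gene. Higher genes were abundant, with a median level of 115.9 CPM, while lower genes had a median of 5.10 CPM, against 5.81 CPM over all tested genes. At 100 CPM or more, 192 of 1643 genes were higher (11.7%) and 45 lower (2.74%). Between 1 and 10 CPM, 57 of 5997 were higher and 863 lower (14.4%). The median log2 fold change climbed from -0.12 below 1 CPM to -0.05, 0.04 and 0.14 in the next classes with TMM, and from -0.25 to -0.18, -0.09 and 0.00 with library totals. A test has more power at higher counts, where smaller fold changes can pass. The part of this in the numbers called and in the size of the called fold changes was not tested. The most abundant higher genes were Apob, the protein of very low density lipoprotein, Selenop (selenium transport), Mug1 (a protease inhibitor), Mup3 (a major urinary protein) and Cyp2e1. The most abundant lower genes were Scd1 (a fatty acid desaturase), Gstm1, H2-D1, Cyp2a5 and Rnf213.

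**Figure D1:**
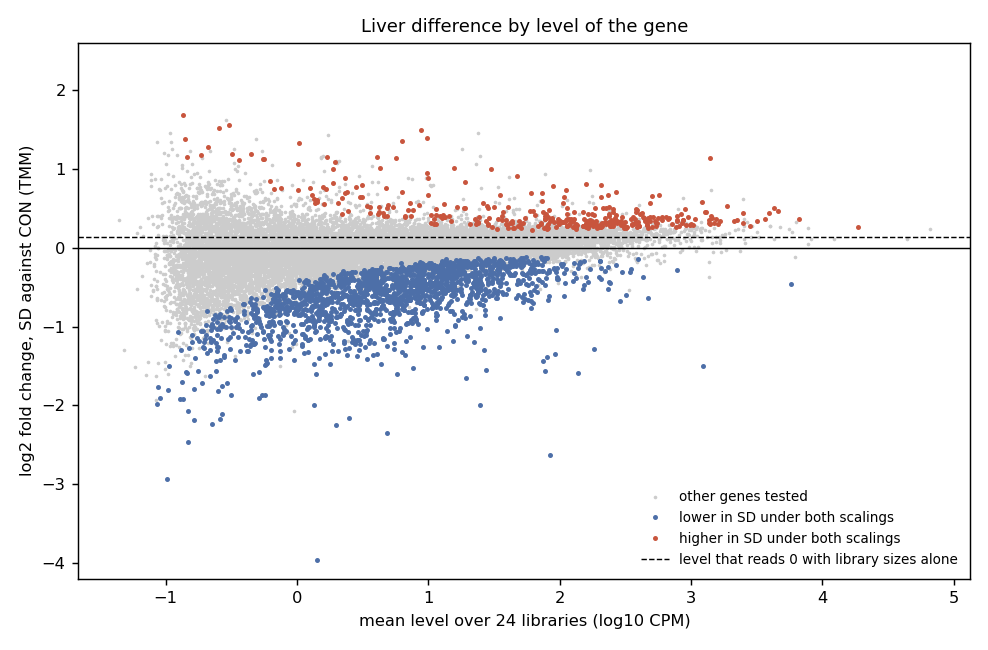
Each dot is a tested gene, with its mean level over the 24 liver libraries on the horizontal axis (log10 CPM) and its log2 fold change of SD against CON (TMM) on the vertical axis; red and blue mark the 358 higher and 1735 lower genes and the dashed line is where library totals alone read no change. Lower genes fill the low and middle levels, and higher genes gather at high levels.

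By pathway, the lowest medians were those of immune and cell division lists and the highest those of metabolic lists. In 76 gene lists with 1663 tested genes, mitosis had the lowest median log2 fold change (-1.12), followed by MHC class II (-0.96), neutrophil (-0.84) and T and NK cell markers (-0.73). At the other end stood male-biased liver genes (0.33), amino acid catabolism with the urea cycle (0.29), fatty acid oxidation (0.29) and PPAR alpha targets (0.28). The median of all tested genes was 0.01. With library totals the medians of the last 4 were 0.19, 0.16, 0.15 and 0.15, against -0.13 for all genes. Lists share members: of the tested PPAR alpha targets 20 of 32 and of the fatty acid oxidation genes 12 of 27 are on other lists too.

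**Figure D2:**
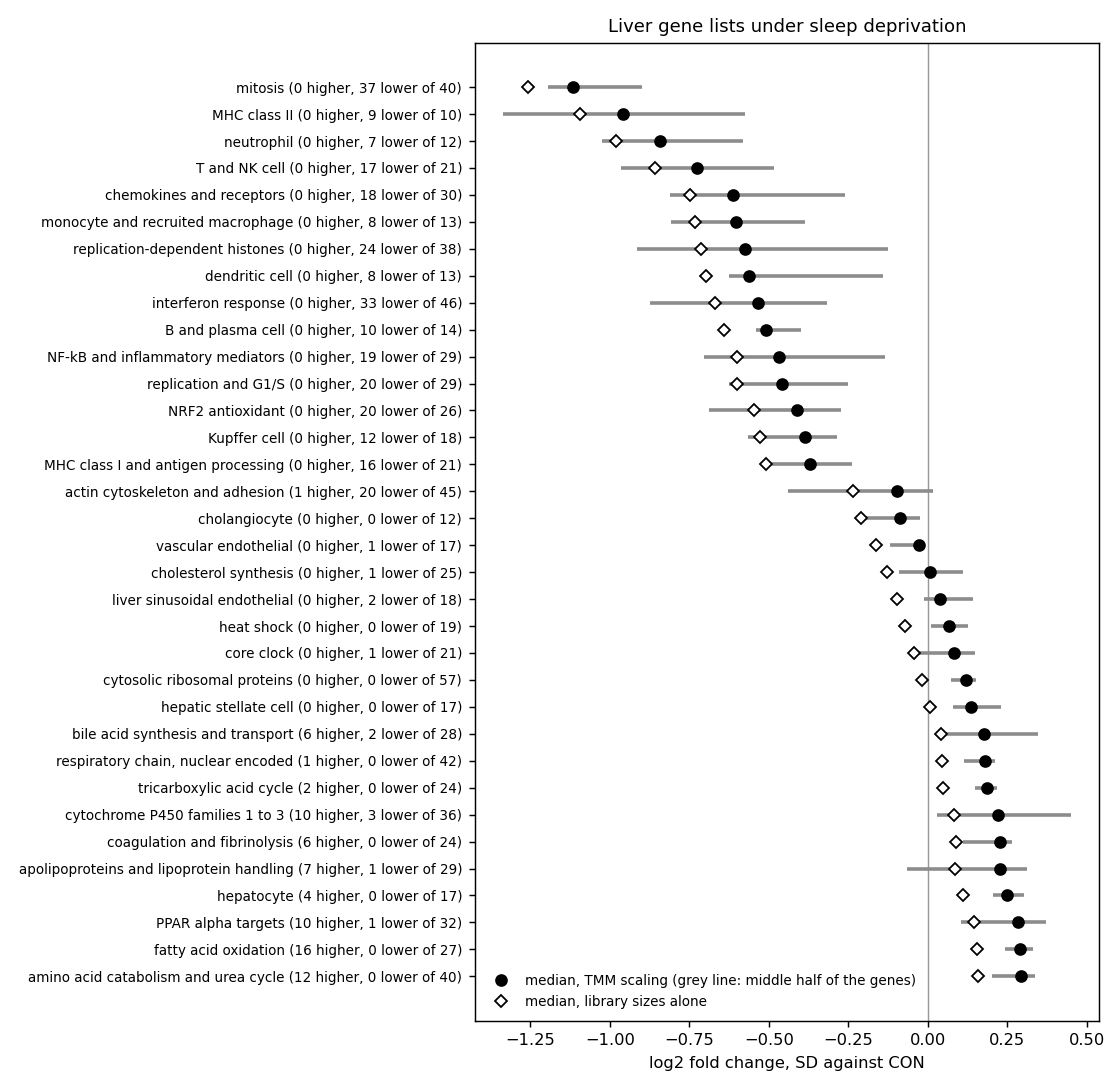
Medians of the log2 fold change of SD against CON in 34 liver gene lists, with TMM (filled circles, grey lines from the lower to the upper quartile of the genes) and with library totals alone (open diamonds). The numbers in brackets count members higher and lower under both scalings; medians run from -1.12 for mitosis to 0.29 for amino acid catabolism.

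Markers of leucocytes were lower in SD. Of 91 tested markers from the 6 leucocyte lists 62 were lower and 0 higher, against 8.8% and 1.82% of all tested genes, with a median log2 fold change of -0.56. Their summed level was 2570 CPM at the lowest, 3116 at the median and 4072 at the highest in CON, and 1936, 2434 and 2602 CPM in SD, so the groups overlapped at their edges. In bulk tissue fewer cells of a type and less RNA per cell cannot be told apart. The lists were lower as follows: 17 of 21 T and NK cell markers, 12 of 18 Kupffer cell markers (with Xcr1, a gene of cross-presenting dendritic cells, counted among the 12), 10 of 14 B and plasma cell markers, 8 of 13 monocyte and recruited macrophage markers, 8 of 13 dendritic cell markers and 7 of 12 neutrophil markers.

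T and NK cell markers separated the conditions. Their sum lay between 55.2 and 99.0 CPM in CON and between 22.6 and 49.8 CPM in SD, with no overlap. Gzma, a granule protease of cytotoxic cells, was at 3.84, 5.49 and 7.72 CPM (lowest, median and highest) in CON and 0.527, 2.02 and 3.14 in SD, so all SD libraries lay below all CON libraries. Its log2 fold change was -1.36 ± 0.19 (SE; adjusted p = 7.1e-05). Cd8a, the co-receptor of cytotoxic T cells, had a log2 fold change of -1.13 ± 0.18, and Nkg7, a granule membrane protein, one of -0.92 ± 0.16. Of the T cell receptor's CD3 chains, Cd3e was lower (-0.66 ± 0.16, adjusted p = 0.0043), while Cd3d (-0.48 ± 0.21, adjusted p = 0.13) passed with library totals only and Cd3g (-0.38 ± 0.19, adjusted p = 0.16) under neither.

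Kupffer cell and monocyte markers followed. Csf1r, the receptor for the growth factor that keeps macrophages alive, lay at 223, 275 and 378 CPM across CON and 140, 204 and 223 across SD, again without overlap (-0.44 ± 0.09, adjusted p = 0.0011). Adgre1, a surface marker of mouse macrophages, was at 96.0, 138 and 221 CPM across CON and 53.7, 80.8 and 103 across SD, where only the edges overlapped (-0.62 ± 0.12, adjusted p = 0.0012). Timd4, a receptor of resident Kupffer cells, had a log2 fold change of -0.62 ± 0.11, Clec4f, a lectin found on Kupffer cells, one of -0.30 ± 0.08 and Vsig4, a complement receptor, one of -0.28 ± 0.08. Ccr2, the receptor that brings monocytes into tissue, was at 9.91, 12.99 and 20.8 CPM across CON and 3.80, 5.66 and 10.6 across SD, with little overlap (-1.03 ± 0.11, adjusted p = 8.1e-06). The monocyte antigen Ly6c2 fell by 0.98 ± 0.15 on the log2 scale.

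Among dendritic cell markers, Itgax, which encodes CD11c, fell by 0.93 ± 0.11, and Batf3, a transcription factor of cross-presenting dendritic cells, by 0.91 ± 0.16 on the log2 scale, with every SD library (0.556 to 1.58 CPM) below every CON library (1.61 to 3.02 CPM). Clec9a, a receptor for dead cells, fell by 0.77 ± 0.12, and Zbtb46 did not pass (-0.03 ± 0.07, adjusted p = 0.85). The alarm proteins of neutrophils S100a8 and S100a9 fell by 0.88 ± 0.16 and 1.01 ± 0.22. These neutrophil genes were near the bottom of the range, with S100a8 between 2.01 and 7.48 CPM across CON and 0.723 and 3.94 across SD. The B and plasma cell sum differed little, at 280.7 to 456.5 CPM in CON against 259.0 to 481.0 in SD, and Sdc1 and Jchain had positive log2 fold changes without a call (0.15 and 0.51). Of the B cell genes, Ighm, the heavy chain of immunoglobulin M, and Cd79b had log2 fold changes of -0.69 ± 0.12 and -0.56 ± 0.12, while the call for Cd79a (-0.53 ± 0.18, adjusted p = 0.041) was lost in 15 of 24 fits without a single library.

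Markers of other non-hepatocyte cells held few calls under both scalings. Of 18 sinusoidal endothelial markers 2 were lower (11.1%, near the 8.8% of all genes) and 0 higher. The 2 were the scavenger receptors Mrc1 and Cd36, which macrophages also express. Stab2, a hyaluronan receptor of these endothelial cells, was at 126, 142 and 192 CPM across CON and 119, 133 and 191 across SD, overlapping throughout (0.01 ± 0.04, adjusted p = 0.91). Among 17 vascular endothelial markers Cdh5 was lower. With library totals alone 6 of 18 sinusoidal and 9 of 17 vascular endothelial markers were lower, against 19.1% of all genes. Stellate cell markers had 0 calls under both scalings and 6 of 17 higher with TMM, against 9.42% of all genes. Among the 6 was Lrat, the enzyme that stores vitamin A (0.38 ± 0.11). Cholangiocyte, mesothelial, erythroid and platelet markers had 0 calls under both scalings, of 12, 10, 10 and 9 tested, and 1, 2, 1 and 2 of them were lower with library totals.

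**Figure D3:**
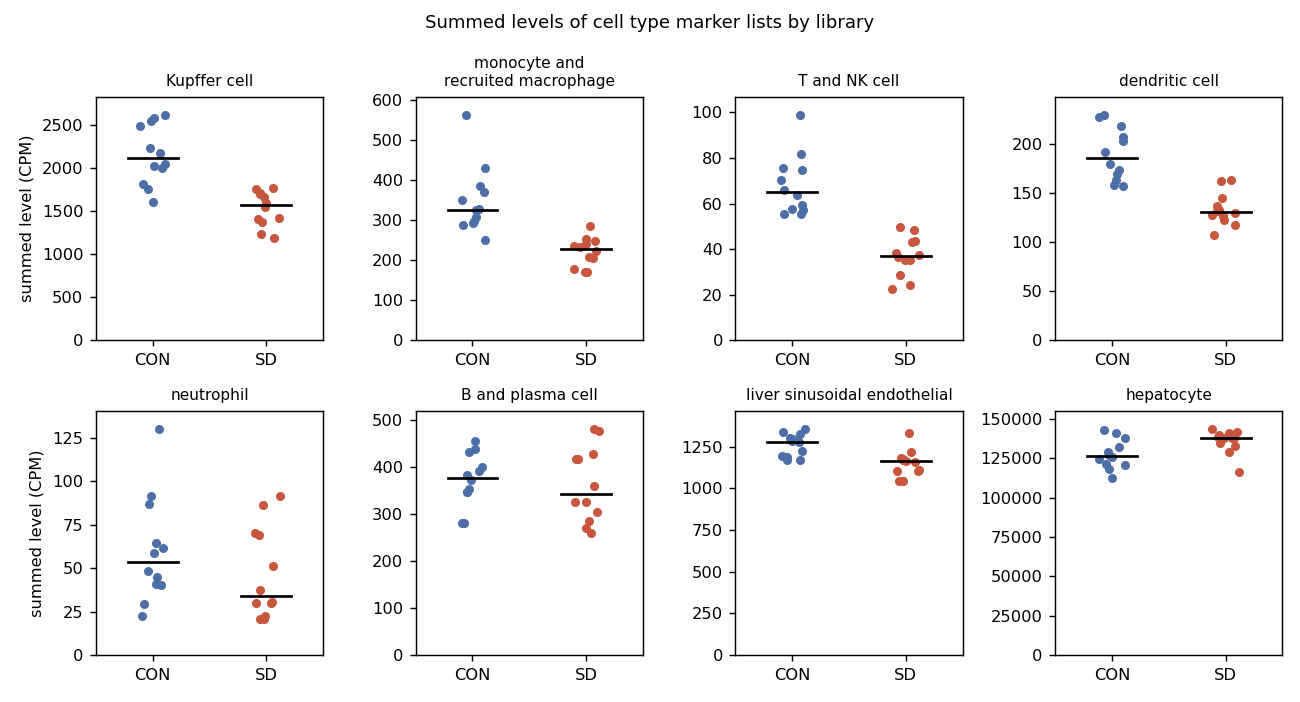
Summed CPM of the tested markers of 8 cell types in each liver library, with CON in blue, SD in red and black bars at the medians. T and NK cell sums do not overlap (CON 55.2 to 99.0, SD 22.6 to 49.8 CPM), Kupffer cell medians are 2116 and 1572 CPM, and hepatocyte sums overlap broadly.

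MHC class II genes, with which antigen-presenting cells show peptides to helper T cells, were lower nearly throughout. Of 10 tested, 9 were lower and 0 higher. Their sum ran from 453.6 to 1172 CPM in CON and from 114.9 to 403.3 CPM in SD, with no overlap. H2-Aa was at 87.8, 124 and 225 CPM across CON and 22.3, 49.7 and 76.1 across SD, its partner chain H2-Ab1 at 73.7, 105 and 210 and at 16.6, 42.5 and 67.8, and H2-Eb1 at 71.0, 104 and 188 and at 18.7, 38.7 and 60.1. For each of the 3 chains all SD libraries lay below all CON libraries. Their log2 fold changes were -1.35 ± 0.14, -1.39 ± 0.15 and -1.44 ± 0.15 (all adjusted p = 8.1e-06). Ciita, the co-activator that switches on the class, went from 11.1, 19.4 and 29.02 to 5.50, 8.29 and 12.5 CPM with slight overlap (-1.06 ± 0.12, adjusted p = 1.1e-05). H2-Oa was the member without a call. The leucocyte markers given above moved the same way, and their part in this result was not tested.

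In the MHC class I list, which covers the molecules of nearly all nucleated cells and the machinery that loads them, 16 of 21 were lower and the median log2 fold change was -0.37. H2-D1, the most abundant of the lower ones named, was at 722, 890 and 1111 CPM across CON and 574, 665 and 825 across SD, with overlap (-0.28 ± 0.08, adjusted p = 0.015). Psmb8, a subunit of the immunoproteasome, fell by 0.64 ± 0.10, and that of H2-Q7 was -0.48 ± 0.07, where reads from near-identical H2-Q copies make the split uncertain. Leucocyte markers (62 of 91 lower) moved with this list, and their part was not tested.

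Interferon-stimulated genes were lower across the list, 33 of 46 tested, with 0 higher and a median log2 fold change of -0.53. The lowest log2 fold change of the list was that of Tgtp2, a GTPase (-1.25). Guanylate-binding proteins attack membranes around pathogens. Gbp2b, which is not on the list, was at 12.7, 29.9 and 59.2 CPM across CON and 2.69, 9.01 and 14.5 across SD, overlapping at the edge (-1.65 ± 0.23, adjusted p = 6.4e-05). In the list, Gbp4 had a log2 fold change of -1.18 ± 0.13 (adjusted p = 8.1e-06) and Gbp5 of -1.13 ± 0.15 (adjusted p = 3.1e-05). Oasl2, an oligoadenylate synthetase relative, fell by 0.73 ± 0.10, and the log2 fold change of Trim30a, a ring-finger protein, was -0.56 ± 0.08. Also outside the list, Ubd, a ubiquitin-like modifier named for its large decrease, fell by 1.48 ± 0.25 from 0.784, 2.12 and 3.65 CPM in CON to 0.342, 0.612 and 1.27 in SD. Members without a call under either scaling included Ifit1, Rsad2 and Oas1a, all antiviral effectors. As above, leucocyte markers moved with the list, without a test of their part.

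Inflammatory mediators gave 19 lower of 29 in the list of NF-kB targets and 18 lower of 30 among chemokines and their receptors, with 0 higher in both. Cxcl9, a chemokine that draws T cells, was at 22.7, 30.7 and 54.4 CPM across CON and 6.58, 14.4 and 33.5 across SD, with some overlap (-1.02 ± 0.17, adjusted p = 0.00032). The chemokine receptor Xcr1 fell by 1.14 ± 0.15 on the log2 scale. Icam1 and Vcam1, which hold leucocytes on endothelium, fell by 0.55 ± 0.10 and 0.47 ± 0.08. Nlrp3, the sensor of an inflammasome, fell by 0.70 ± 0.12. Acod1, on neither list, the itaconate-making enzyme of activated macrophages, fell by 1.99 ± 0.30 from 0.953 to 5.03 CPM in CON to 0.231 to 0.885 in SD, without overlap. Nlrp12, a relative of Nlrp3 that is on neither list, was higher, at 6.41, 13.4 and 29.02 CPM across CON and 15.2, 23.6 and 32.6 across SD (0.83 ± 0.17, adjusted p = 0.0016). Of the tested chemokine list 11 of 30 are on other lists too; leucocyte markers moved with both lists, and their part was not tested.

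Cell division genes fell together. Of 40 tested mitosis genes 37 were lower and 0 higher, and leaving out any single library left 37 or 38 lower. The exceptions were Aurka and Bub1b, without a call under either scaling, and Ect2, which passed with library totals only. Top2a, the topoisomerase that untangles chromosomes, was at 19.2, 27.05 and 72.0 CPM across CON and 5.47, 13.1 and 20.3 across SD; the highest SD library lay just above the lowest CON library. Its log2 fold change was -1.19 ± 0.19 (adjusted p = 0.00021). Kif23, a kinesin of cell cleavage, Knl1, a kinetochore scaffold, and Ncapg, a condensin subunit, fell by 1.15 ± 0.19, 1.25 ± 0.21 and 1.11 ± 0.18. For the joined list the sums were 207.6, 262.4 and 693.1 CPM across CON and 80.98, 137.7 and 260.8 across SD.

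DNA replication genes were lower in 20 of 29, with a median log2 fold change of -0.46. Lig1, the ligase that joins lagging-strand fragments, was at 7.24, 8.74 and 14.7 CPM across CON and 2.17, 4.16 and 6.59 across SD, and Mcm3, a subunit of the replicative helicase, at 13.2, 17.05 and 43.1 and at 6.59, 10.0 and 12.7. Neither overlapped (-0.97 ± 0.13 and -0.70 ± 0.14, adjusted p = 5.2e-05 and 0.0012). The highest CON library for both Mcm3 and Uhrf1, a partner of DNA methylation, was CT24 replicate 2 (43.1 and 29.3 CPM). Dnmt1, which copies DNA methylation after replication and stands in the chromatin list, fell by 0.43 ± 0.06, from 22.6 to 35.6 CPM in CON to 13.6 to 21.3 in SD. Of the replication-dependent histones, whose messages are made in S phase, 24 of 38 were lower, with Hist1h3g falling by 1.42 ± 0.20 and not overlapping (2.77 to 8.72 CPM in CON, 0.468 to 2.63 in SD). Histone copies are nearly identical, so the split of reads between them is uncertain. Leucocyte markers moved with these lists, and their part in the result was not tested.

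Genes of the NRF2 antioxidant list were lower in 20 of 26, with 0 higher and a median log2 fold change of -0.41. They included Nfe2l2, which encodes NRF2, the glutathione-making Gclc, the thioredoxin reductase Txnrd1, whose call was lost in 19 of 24 fits without a single library, and the heme oxygenase Hmox1 (-0.35 ± 0.09). Gstm1, a glutathione transferase and the most abundant of them, was at 907, 1788 and 3266 CPM across CON and 412, 577 and 1034 across SD; only the edges overlapped (-1.50 ± 0.19, adjusted p = 2.3e-05). Gstm1 lies at chr3:108012255-108017973 on the minus strand. Cbr3, a carbonyl reductase, was at 1.04, 3.46 and 8.98 CPM across CON and 0.477, 0.731 and 1.33 across SD (-2.16 ± 0.28, adjusted p = 2.9e-05). Gstm3, Gsta2 and Gsta4 had log2 fold changes of -1.56 ± 0.23, -1.53 ± 0.27 and -0.70 ± 0.11. The Gsta and Gstm genes are close copies, so reads may be split between them.

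The NADPH-making enzyme of the pentose phosphate path, G6pdx, did not overlap, at 13.4, 17.3 and 21.2 CPM across CON and 9.05, 10.9 and 13.02 across SD (-0.54 ± 0.08, adjusted p = 7.2e-05). Slc7a11, the cystine importer, fell by 1.42 ± 0.27 at a low level of 0.115 to 0.832 CPM in CON. Nqo1, Gclm and Gstm2 had no call under either scaling. In the wider list of conjugation enzymes, 7 of 46 were lower, 6 of them Gsta and Gstm genes, and 4 were higher, namely Ugt2a3, Sult2a8, Gstk1 and Gstz1. The transporter gene Abcc12 fell by 2.25 ± 0.33 from 0.603 to 6.43 CPM in CON to 0.182 to 1.75 in SD.

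Smaller groups of lower genes lay in the cytoskeleton, glycolysis and early response. Of 45 actin and adhesion genes 20 were lower and 1 higher. Coro1a, an actin regulator of leucocytes, lay at 19.5, 21.98 and 38.6 CPM across CON and 8.02, 11.7 and 18.3 across SD, with no overlap (-0.84 ± 0.12, adjusted p = 6.2e-05), and Dock2, an exchange factor of leucocytes, fell by 0.71 ± 0.10. Flna and Iqgap1, which are made in many cell types, fell by 0.42 ± 0.06 and 0.49 ± 0.06. In glycolysis, the 4 lower genes of 22 were Hk1, Hk2, Pfkp and Pkm, isoforms of tissues other than the hepatocyte, while Pklr, the liver form of pyruvate kinase, had no call and the hepatocyte's glucose carrier Slc2a2 was higher. Pkm was at 39.7, 48.6 and 64.1 CPM across CON and 26.7, 29.1 and 35.7 across SD, without overlap (-0.58 ± 0.07, adjusted p = 8.1e-06). Of 27 immediate early genes 8 were lower, against 8.8% of all genes, and 0 higher; 5 were lower without CON CT8 replicate 2, SD CT4 replicate 2, SD CT8 replicate 2 or SD CT20 replicate 1, each left out alone. They include Klf6 (-0.32 ± 0.05) and Atf3 (-0.70 ± 0.14). Gdf15, a hormone released by stressed cells, fell by 1.36 ± 0.30. Leucocyte markers moved with the cytoskeletal and glycolytic genes, and their part was not tested.

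Fatty acid oxidation had the highest share of higher genes, 16 of 27 tested, with 0 lower, against 1.82% and 8.8% of all genes; TMM alone called 21. They span the path: the carnitine enzymes Cpt1a and Cpt2, the acyl-CoA dehydrogenases Acads, Acadm, Acadl and Acadvl, both subunits of the trifunctional protein and the isomerases Eci1 and Eci2. Slc27a2, which activates very long fatty acids, was at 854, 954 and 1325 CPM across CON and 971, 1367 and 1864 across SD. Its groups overlapped, and at each time both SD libraries lay above both CON libraries (0.58 ± 0.07, adjusted p = 8.2e-06). The gene lies at chr2:126552407-126588243 (+). Cpt2 was at 87.4, 106 and 116 CPM across CON and 105, 125 and 131 across SD (0.37 ± 0.06, adjusted p = 0.00013). Hadha rose by 0.29 ± 0.05 and Eci1 by 0.36 ± 0.06 on the log2 scale.

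Ketone synthesis, which turns the product of that path into fuel for other organs, had 2 higher of 7, against 1.82% of all genes. Acat1, which joins acetyl-CoA units, was at 198, 227 and 244 CPM across CON and 230, 260 and 298 across SD, with overlap (0.35 ± 0.05, adjusted p = 8.4e-05). Of 32 PPAR alpha targets 10 were higher and 1 lower; Retsat, a retinol saturase, rose by 0.70 ± 0.11. On the side of fat synthesis, 1 of 29 genes was higher (3.45%) and 3 were lower (10.3%). These shares were near those of all genes (1.82% and 8.8%). The lower ones were Scd1, Pnpla3 and Pnpla5, and 7 were lower without CON CT8 replicate 2. Of 25 cholesterol synthesis genes Pmvk alone was lower (-0.32 ± 0.09) and 0 were higher; TMM called 1 higher.

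Amino acid catabolism and the urea cycle had 12 higher of 40, with 0 lower, and TMM alone called 27. The 12 include Otc, Ass1 and Asl, consecutive enzymes of the urea cycle, and its mitochondrial carriers Slc25a15 and Slc25a13. Hpd, which opens tyrosine breakdown to homogentisate, was at 543, 836 and 915 CPM across CON and 810, 992 and 1223 across SD, with overlap (0.49 ± 0.09, adjusted p = 0.00035). Slc25a13, the aspartate and glutamate carrier, rose by 0.38 ± 0.06, and Bckdha, of branched-chain amino acid breakdown, by 0.34 ± 0.06. Arg1, Tat and Tdo2 had no call under either scaling. In the list of gluconeogenesis and glycogen, 4 of 25 were higher (16%, against 1.82% of all genes) and 2 lower (8%, near the 8.8% of all genes). Of the higher ones, Fbp1 rose by 0.40 ± 0.07 and Pcx, which makes oxaloacetate from pyruvate, by 0.37 ± 0.06.

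Cytochrome P450 enzymes of families 1 to 3, which oxidize drugs and steroids, had 10 of 36 higher, against 1.82% of all genes, and 3 lower, a share near the 8.8% of all genes. Cyp2e1, an enzyme of pericentral hepatocytes that acts on ethanol, was at 2617, 3652 and 5100 CPM across CON and 3495, 4896 and 5845 across SD. The groups overlapped over the day, while at each time both SD libraries lay above both CON libraries (0.51 ± 0.07, adjusted p = 4.9e-05). Cyp2d40 and Cyp2d10 rose by 0.59 ± 0.08 and 0.36 ± 0.06. The 3 lower genes were Cyp2a4, Cyp2a5 and Cyp2g1 (-0.92 ± 0.22); Cyp2a5 was at 119, 531 and 1573 CPM across CON and 141, 273 and 638 across SD (-0.63 ± 0.15, adjusted p = 0.0044). Cyp2a4 and Cyp2a5 are near-identical, as are members of the Cyp2c and Cyp3a clusters, and their own shares are uncertain.

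Sex-biased liver genes, which growth hormone pulses set in the male and female liver, were higher in part. Of 26 male-biased genes 4 were higher (15.4%, against 1.82% of all genes) and 0 lower. Of 27 female-biased genes 4 were higher (14.8%) and 3 lower, the last a share near the 8.8% of all genes. Without SD CT20 replicate 1, 7 male-biased genes were higher, and 2 female-biased genes were higher without either CON CT8 library, SD CT8 replicate 2, SD CT16 replicate 2 or SD CT24 replicate 2, each left out alone. Mup7, a male-biased major urinary protein with many close copies, was at 311, 925 and 1766 CPM across CON and 722, 1811 and 3717 across SD (1.14 ± 0.26, adjusted p = 0.0033), and Hsd3b5, a steroid dehydrogenase, rose by 0.51 ± 0.10. Among the female-biased genes Cyp17a1, a steroid hydroxylase, was at 1.16, 2.92 and 4.26 CPM across CON and 1.30, 4.87 and 14.4 across SD (1.01 ± 0.20, adjusted p = 0.0010), with wide overlap.

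Secreted proteins and transporters of the hepatocyte were higher in part. Coagulation factors gave 6 of 24 higher and 0 lower, against 1.82% and 8.8% of all genes. The 6 were F2 (prothrombin), F7, F9, F11, Proc and Plg, with F7 rising by 0.32 ± 0.05. Complement genes moved both ways. Of 29 tested 5 were higher (17.2%, against 1.82% of all genes) and 4 lower (13.8%, against 8.8% of all genes). Among the higher ones were Hc, C8b, C8g and Masp2, which encode plasma proteins made in hepatocytes. The 4 lower ones, C1qa, C1qb, C1qc and Cfp, are made by macrophages and other leucocytes. C8b was at 415, 523 and 602 CPM across CON and 538, 607 and 679 across SD (0.38 ± 0.06, adjusted p = 0.00016). Of 29 apolipoprotein and lipoprotein genes 7 were higher, among them Lcat (0.34 ± 0.06), Lipc (0.32 ± 0.06) and Apoa4, at 55.2, 68.8 and 94.8 CPM across CON and 83.4, 105 and 146 across SD (0.78 ± 0.08, adjusted p = 8.1e-06). The cholesterol exporter Abcg1 was the lower one (-0.39 ± 0.07).

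Bile acid genes had 6 higher of 28 (21.4%, against 1.82% of all genes) and 2 lower (7.14%, near the 8.8% of all genes). The uptake carriers Slc10a1, Slco1b2 and Slco1a1 rose by 0.42 ± 0.07, 0.37 ± 0.06 and 0.44 ± 0.08, together with Cyp8b1, Scp2 and Slc27a5 of the synthesis path, while the export pumps Abcc3 and Abcc4 were lower. Slc22a7, an organic anion carrier, was at 21.8, 45.8 and 71.6 CPM across CON and 42.5, 71.8 and 104 across SD (0.69 ± 0.14, adjusted p = 0.0011). In the acute phase list 2 of 28 were higher (4 without CON CT8 replicate 2), Serpina3n (0.66 ± 0.15) and Lrg1 (0.67 ± 0.16). The 2 lower ones, a share (7.14%) near that of all genes, were Cd14 and Il1rn. The calls of Cd14 and Il1rn were lost in 7 and 14 of 24 fits without a single library. Further genes with the largest increases were Rfx4, a transcription factor, at 0.280 to 4.43 CPM in CON and 0.594 to 5.96 in SD (1.09 ± 0.19, adjusted p = 0.00038), and Aqp4, a water channel, at 3.89, 7.05 and 13.8 and at 6.65, 12.5 and 21.2 (0.88 ± 0.13, adjusted p = 8.6e-05).

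Several lists of abundant housekeeping and mitochondrial genes had calls that rested on the scaling. Nuclear-encoded respiratory chain genes had 21 of 42 higher with TMM and 1 with library totals, with medians of 0.18 and 0.04. For the tricarboxylic acid cycle the numbers were 18 and 2 of 24 (0 to 3 under both scalings without single libraries), for cytosolic ribosomal proteins 14 and 0 of 57, for insulin and mTOR signalling 13 and 1 of 32 and for endoplasmic reticulum stress genes 7 and 0 of 24. The reverse was seen for spliceosome and chromatin genes, of which TMM called 0 of 41 and 2 of 46 lower and library totals 15 and 18. Hepatocyte markers had 4 of 17 higher under both scalings and 9 with TMM; without SD CT16 replicate 1 there were 7 under both. Ttr (transthyretin) passed under neither (0.11 ± 0.08, adjusted p = 0.39).

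Core clock and heat shock genes held few calls. Of 21 core clock genes Csnk1e, a kinase of the PER proteins, was lower (-0.22 ± 0.07; 4.76%, against 8.8% of all genes). Under both scalings 0 were higher, and TMM also called Tef and Hlf higher. Dbp had too few reads to be tested. The additive fit compares mean levels over the 6 times and does not measure a shift in the timing or swing of a rhythm. The condition by time test called 0 genes, and with a replicate block it called Per1 and Noct (edgeR, both adjusted p = 0.034). The list of heat shock genes had 0 calls of 19 under either scaling. In the glucocorticoid list 3 of 27 were higher (11.1%, against 1.82% of all genes) and 1 lower. There were 5 higher without SD CT16 replicate 1 or SD CT4 replicate 2. In the integrated stress response 1 of 26 was higher and 5 were lower (19.2%, against 8.8% of all genes), with 3 lower without CON CT4 replicate 1. In the p53 list 1 of 22 was higher and 4 were lower (18.2%). Agt (angiotensinogen) of the glucocorticoid list rose by 0.37 ± 0.06 and Atf5 of the stress list by 0.50 ± 0.11.

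**Figure D4:**
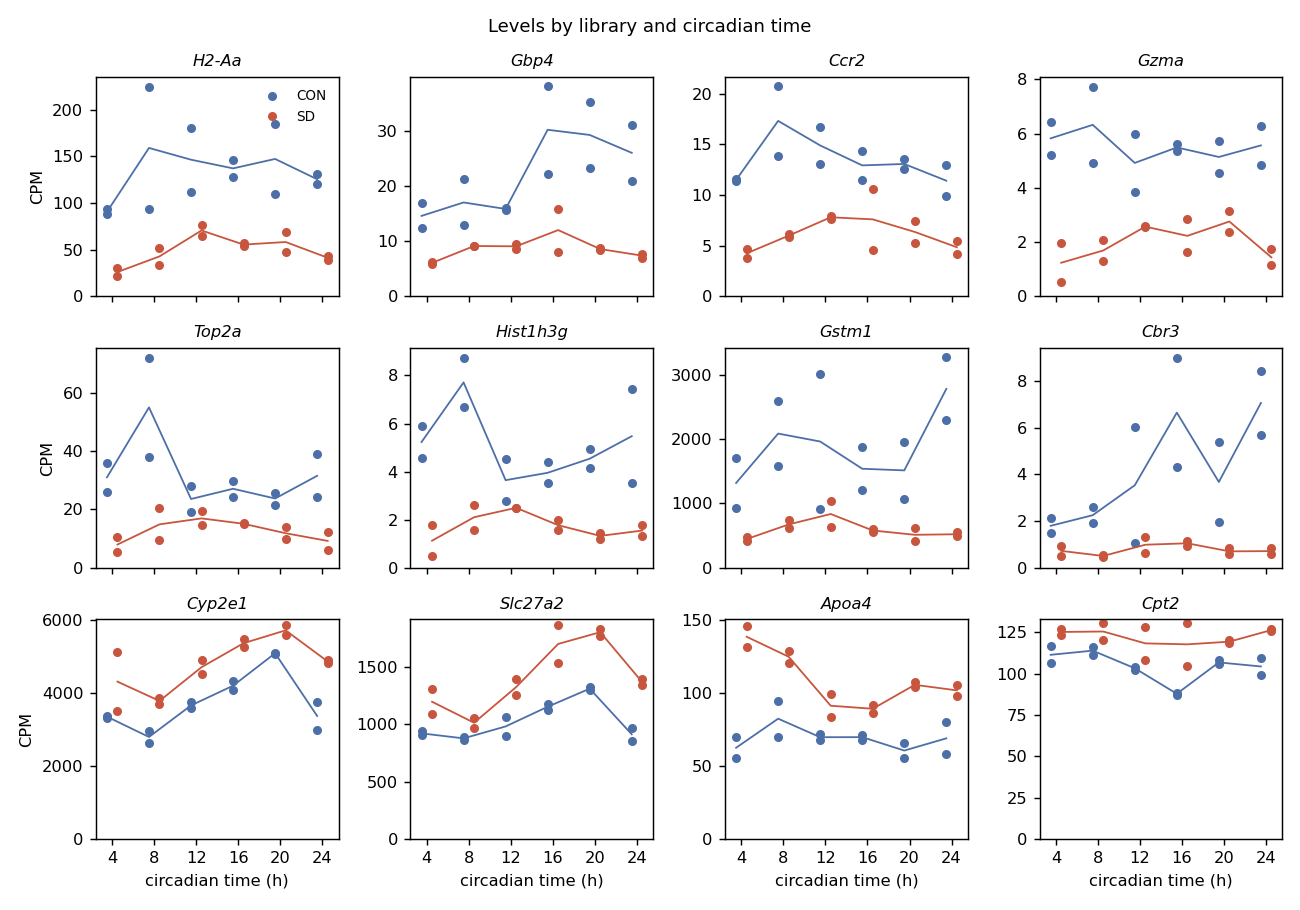
Levels of 12 genes in each liver library (CPM, linear axes from 0) by circadian time in h, CON in blue and SD in red, with lines through the means of the 2 replicates. H2-Aa and Gzma do not overlap between conditions at any time of day (87.8 to 225 against 22.3 to 76.1 CPM for H2-Aa), whereas Cyp2e1 and Slc27a2 move over the day in both and are higher in SD at each time.

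Differences were also set out by time. In SD, circadian time runs together with time since the deprivation, and these cannot be told apart. Mitosis, histone, replication, interferon, NF-kB, MHC class II, Kupffer cell and T and NK cell lists had their smallest median difference at CT12, and the NRF2 list at CT8 (-0.15). The median log2 fold change of mitosis genes was -1.62 at CT4, -1.77 at CT8, -0.05 at CT12, -0.65 at CT16, -0.77 at CT20 and -1.48 at CT24, and that of replication-dependent histones -0.90, -0.88, 0.15, -0.31, -0.43 and -0.81. T and NK cell markers had -1.13, -1.15, -0.39, -0.72, -0.54 and -0.47. MHC class II genes were at -0.67 at CT12 and between -0.87 and -1.21 at the other times. Fatty acid oxidation was positive at all times, from 0.17 at CT4 to 0.51 at CT16. These medians rest on 2 libraries a condition at each time. In Top2a the levels at CT8 were 72.0 and 38.1 CPM across CON and 9.43 and 20.3 across SD, and at CT12 19.2 and 27.98 in CON and 14.5 and 19.3 in SD. The test of a difference of the effect between times (edgeR, condition by time) called 0 of 19708 genes (0.0%), with 884 at an unadjusted p under 0.05 and a smallest adjusted p of 0.31, while DESeq2 called 45.

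**Figure D5:**
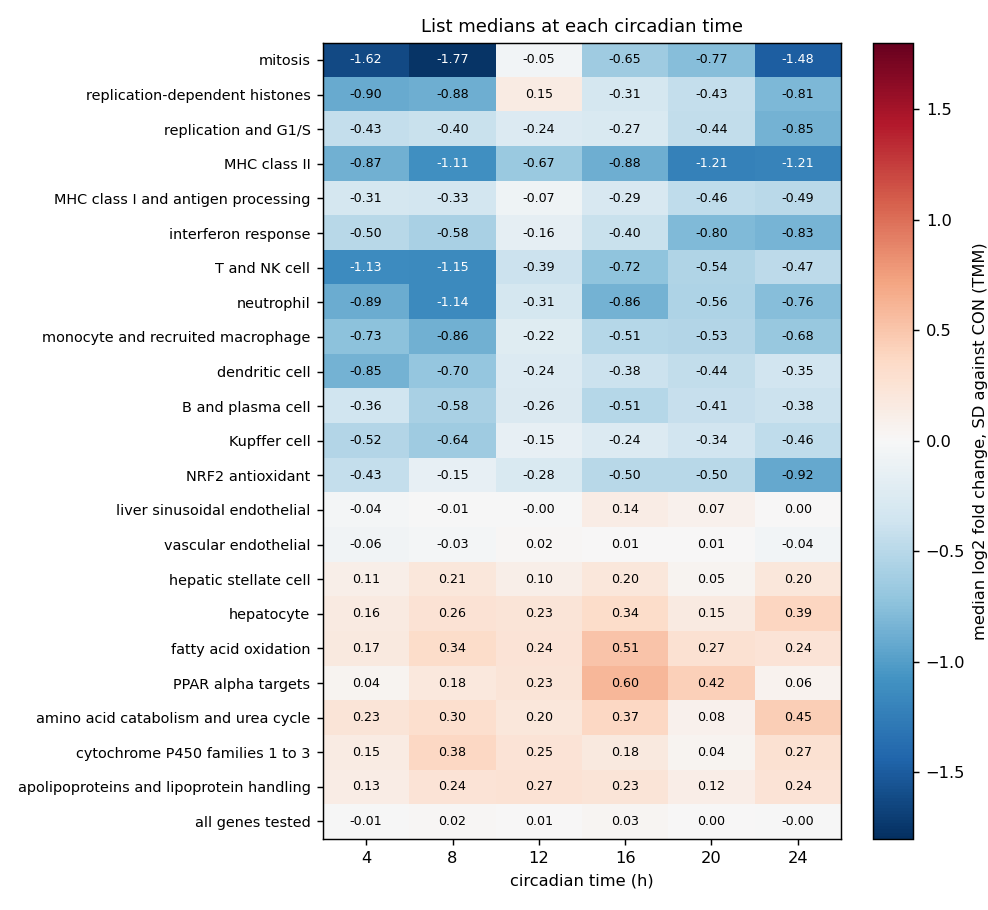
Median log2 fold change (TMM) of SD against CON for 22 liver gene lists and all tested genes at each circadian time in h, from 2 libraries a condition at each time; blue is lower and red higher in SD. Mitosis runs from -1.77 at CT8 to -0.05 at CT12 and fatty acid oxidation from 0.17 to 0.51.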

How the data were processed

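Total RNA of mouse liver was sequenced as stranded libraries. Per the labels the authors trimmed reads (Trim Galore), aligned them to GRCm38/mm10 (HISAT2, SAMtools) and counted them per gene (featureCounts). The deposited values are raw counts of 54833 genes. Here 24 liver columns with 32.03 to 48.85 M counts each were used, 12 SD and 12 CON, grouped by the labels. Depth limits precision at low counts.

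Genes passing edgeR's expression filter (19708) were fitted with edgeR 4.0.16 (R 4.3.3), quasi-likelihood F-test, condition plus time, with TMM and with library totals alone; a condition by time model tested differences between times. P-values were adjusted by Benjamini-Hochberg, threshold 0.05. Library measures were tested by exact permutation within times over 46656 exchanges. The procedure was tested on simulated data. DESeq2 1.42.0, other filters and scalings, a replicate block and leaving out each library were alternatives.

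Named genes were those with the largest changes at a mean of 1 CPM or more (12 a direction) and up to 4 called genes a list. The first markers of each cell type list and the 5 most abundant called genes a direction were named too. Other genes named were chosen after their values were seen. Members and lists were chosen with earlier results of these data known. Some genes are not reported here.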

Additional observations from a re-analysis of the deposited data

How the results depend on the processing

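With library totals alone 358 genes were higher and 3763 lower, against 1857 and 1735 with TMM. Leaving out single libraries gave 3021 to 4445 called genes with TMM (1509 to 2356 higher, 1512 to 2089 lower) and 3349 to 5588 with library totals (268 to 403 higher, 3057 to 5185 lower). The test of differences between times called 0 genes, 45 with DESeq2, 876 without a filter on low counts, 2 with the replicate block and 0 to 4 without single libraries (4 without SD CT12 replicate 1, 2 without CON CT16 replicate 1, and 1 each without SD CT16 replicate 1 and SD CT8 replicate 2); the cause was not tested. Replicate numbers did not pair the samples: correlations of same-numbered deviations ran from -0.19 to 0.21, and the replicate block gave 1742 higher and 1694 lower genes. DESeq2 gave 2301 higher and 1942 lower. Of 242 named genes, 240 kept direction and side of the threshold with DESeq2, 230 with library totals 238 with the replicate block and 218 with the block and library totals together, where 19 lost their call. Stab2 reversed, to -0.12, under the replicate block with library totals.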

Other observations

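Among 54833 genes counted, 22244 had 0 reads in all 24 liver libraries, among them 4467 of 21734 protein-coding genes. Of the listed genes 142 were not tested and 61 were listed at 0 in every liver library. Genes that every cell uses were among these, such as the actin regulator Cfl1 and the respiratory chain genes mt-Co1, mt-Nd1 and Cox8a, and so were Gnmt, Isg15, Irf9, Ctss and Cebpb. A listing at 0 therefore gives no level for these genes, and 11 of 13 mitochondrially encoded respiratory chain genes were not tested.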
